A study of Mus musculus with 6 samples.

Results

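Genes of the mitochondrial tricarboxylic acid (TCA) cycle and of branched-chain amino acid breakdown were followed in the inguinal fat pad, a white adipose depot under the skin, of cold-stimulated C57BL/6 mice aged 8 weeks. Wild-type mice (WT, 3 libraries, numbered 1 to 3) were compared with Rarres2-/- mice (3 libraries, numbered 4 to 6), which lack the gene for the adipocyte-secreted protein chemerin. Both groups were cold-stimulated, so no value here describes the response to cold itself. The part of Rarres2 that is deleted, the cells in which it is deleted, the sex of the mice, and the temperature and length of the cold were not given in the sources used here. The gene set was fixed by symbol: 14 TCA members from Cs to Dld and 19 branched-chain members from Bcat1 to Aldh6a1, 33 of the 17342 named genes. All 33 had a row in every table, and 32 reached a mean of 1 FPKM over the 6 libraries, the level required for testing. Bcat1 did not.

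The TCA cycle takes acetyl-CoA through citrate, isocitrate, 2-oxoglutarate, succinyl-CoA, succinate, fumarate and malate back to oxaloacetate, and passes electrons to the respiratory chain on the way. Leucine, isoleucine and valine are broken down by a shared transaminase and a shared dehydrogenase complex, after which each amino acid follows its own enzymes to acetyl-CoA, acetoacetate or succinyl-CoA. Brown and beige adipocytes burn these amino acids during heat production, and white adipocytes use them for fat synthesis. Dld, listed here with the TCA cycle, encodes the E3 subunit that the 2-oxoglutarate and the branched-chain ketoacid dehydrogenase complexes share.

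Rarres2 was at 436, 610 and 505 FPKM in WT, against 0.260, 6.35 and 1.41 FPKM in Rarres2-/- replicates 4, 5 and 6. All 3 Rarres2-/- libraries were thus far below all 3 WT libraries for the targeted gene. FPKM expresses the fragments of a gene per length of its transcript and per mapped total, and without counts the number of reads stays unknown. Steps between the lowest values put relative depths at 0.53 to 1.01 times that of WT replicate 2, with WT replicate 1 the shallowest. WT replicate 1 and Rarres2-/- replicate 4 stood apart from the other 4 libraries in several marker lists. The summed level of 5 endothelial markers was 169 FPKM in WT replicate 1 and 110 FPKM in Rarres2-/- replicate 4, against 34.4 to 39.6 FPKM elsewhere. Of 12 skeletal muscle markers the sum was 1624 FPKM in WT replicate 1 and 204 to 605 FPKM elsewhere, and of 8 macrophage markers with a row it was 466 FPKM in WT replicate 1 and 916 to 1979 FPKM elsewhere. WT replicate 1 was the highest library for 9 of the 12 muscle markers. The others, Myh1, Myh2 and Mb, were at 0.158, 0 and 0.513 FPKM there and were highest in Rarres2-/- libraries. For 8 fibroblast and progenitor markers the sum was 1007 FPKM in WT replicate 1 and 1816 to 4303 FPKM elsewhere. WT replicate 1 was the lowest library for all 8. Adipoq, which white adipocytes express, was at 2118 to 2809 FPKM in all libraries. The sum of 8 white adipocyte markers, most of it Fabp4 and Cfd, was 38775 FPKM in Rarres2-/- replicate 4 and 57573 to 74154 FPKM elsewhere. Replicate 4 was the lowest library for 5 of the 8, but the highest for Plin1 (844 FPKM, against 526 to 602 FPKM in WT), and for Lipe (934 FPKM) it was above the WT range of 685 to 786 FPKM. The sum of 7 B cell and lymph node markers was 29.0 FPKM in WT replicate 3 and 15.5 FPKM in Rarres2-/- replicate 6, against 1.70 to 2.97 FPKM elsewhere. In bulk tissue, fewer cells of a type and less RNA per cell cannot be told apart. Whether every library came from its own mouse is not stated. If not, the p-values below measure only the spread between libraries.

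The stretches of DNA just upstream of 4 members are shown as examples, although no member had an adjusted p under 0.05 by limma. Ogdh was the 1 tested member whose genotype groups did not overlap, with the higher values in Rarres2-/-, where 5.81% of all tested genes did so. Dld and Pcca had the highest positive log2 differences of the TCA and of the branched-chain members, and Cs encodes the enzyme that feeds the cycle. Each is the 250 bases before a RefSeq transcript start on GRCm38.p6, read 5′ to 3′ on the gene's own strand, with CG dinucleotides in capitals. Cs lies at chr10:128337477-128337726 (plus strand), Ogdh at chr11:6291347-6291596 (plus strand), Dld at chr12:31351472-31351721 (minus strand) and Pcca at chr14:122484115-122484364 (plus strand).
Cs: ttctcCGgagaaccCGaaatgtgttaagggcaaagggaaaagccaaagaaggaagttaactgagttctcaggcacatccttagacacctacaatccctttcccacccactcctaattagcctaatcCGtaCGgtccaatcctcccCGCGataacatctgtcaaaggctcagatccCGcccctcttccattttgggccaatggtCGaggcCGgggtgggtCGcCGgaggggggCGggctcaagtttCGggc
Ogdh: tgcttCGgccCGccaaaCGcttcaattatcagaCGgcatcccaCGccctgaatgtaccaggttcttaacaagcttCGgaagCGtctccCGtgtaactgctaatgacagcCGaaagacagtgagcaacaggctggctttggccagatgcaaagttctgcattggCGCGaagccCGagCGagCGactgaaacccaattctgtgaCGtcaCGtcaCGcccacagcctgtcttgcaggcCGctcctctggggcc
Dld: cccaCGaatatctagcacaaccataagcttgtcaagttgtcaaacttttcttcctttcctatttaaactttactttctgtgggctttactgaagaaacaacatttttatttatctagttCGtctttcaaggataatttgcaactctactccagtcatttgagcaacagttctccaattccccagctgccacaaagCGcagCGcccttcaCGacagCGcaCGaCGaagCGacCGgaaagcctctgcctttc
Pcca: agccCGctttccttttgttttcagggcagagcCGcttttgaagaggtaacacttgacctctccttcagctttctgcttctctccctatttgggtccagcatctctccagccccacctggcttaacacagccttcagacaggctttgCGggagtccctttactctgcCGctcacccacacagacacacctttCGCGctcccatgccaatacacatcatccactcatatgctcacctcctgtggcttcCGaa
Ogdh has 6 entries and Pcca 2, and the stretch before the most upstream start of each is shown. The stretches hold 13 CG dinucleotides for Cs, 18 for Ogdh, 10 for Dld and 7 for Pcca. Of the 33 members, 29 had at least 1 RefSeq promoter entry, 39 entries in all. Those entries had a median GC content of 57.2% over the 250 upstream bases, against 52.4% over 32851 entries of all genes. Every member entry held at least 1 CG.

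Short motifs of regulators of mitochondrial genes were then searched on both strands of the entries, from 250 bases before to 50 bases after the start. The estrogen-related receptor site TCAAGGTCA was in 0 of 39 member entries and in 0.423% of all 32851. Its core AAGGTCA, which the longer form contains, was in 1 member entry, an Ogdh start downstream of the printed one, and in 4.72% of all. The full NRF1 palindrome was in 0 member entries and in 0.971% of all. Its shorter form GCATGCGC, which the palindrome contains, was in 3 member entries, of Ogdh (again at later starts) and Pccb, and in 2.71% of all. The Ogdh entries with this form overlap, and their match is the same genomic site. The YY1 motif AAGATGGC was in 2 member entries, of Bckdha and Idh3g, and in 2.75% of all. These are matches of letters within this window only.

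Both gene sets had slightly higher means in Rarres2-/- than in WT, and no member passed the test. Of 14 TCA members, 13 had a higher mean log2 value in Rarres2-/- and the median log2 difference was 0.20, with a range of -0.0042 (Suclg1) to 0.38 (Dld). Of 18 tested branched-chain members, 13 were higher and 5 lower, with a median of 0.14 and a range of -0.45 (Bcat2) to 0.39 (Pcca). Over all 11086 tested genes 48.6% were higher, and the median was -0.0070. The median of the TCA members exceeded that of the branched-chain members by 0.06. Both medians stayed above 0 under every scaling tried, with the lowest, 0.14 for TCA and 0.091 for branched-chain members, under quantile normalization. Log2 differences are on the log2(FPKM + 1) scale, Rarres2-/- minus WT. By limma over all 11086 genes, 0 of 32 members had an adjusted p under 0.05, where 0% of all genes did, and 0 of 32 had an unadjusted p under 0.05, against 436 of all genes. Every tested member had an adjusted p of 0.999. Rarres2, the deleted gene, did not pass either (log2 difference -7.51, adjusted p = 0.0597 by limma). The lack of called members therefore does not show that they are unchanged.

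**Figure D1:**
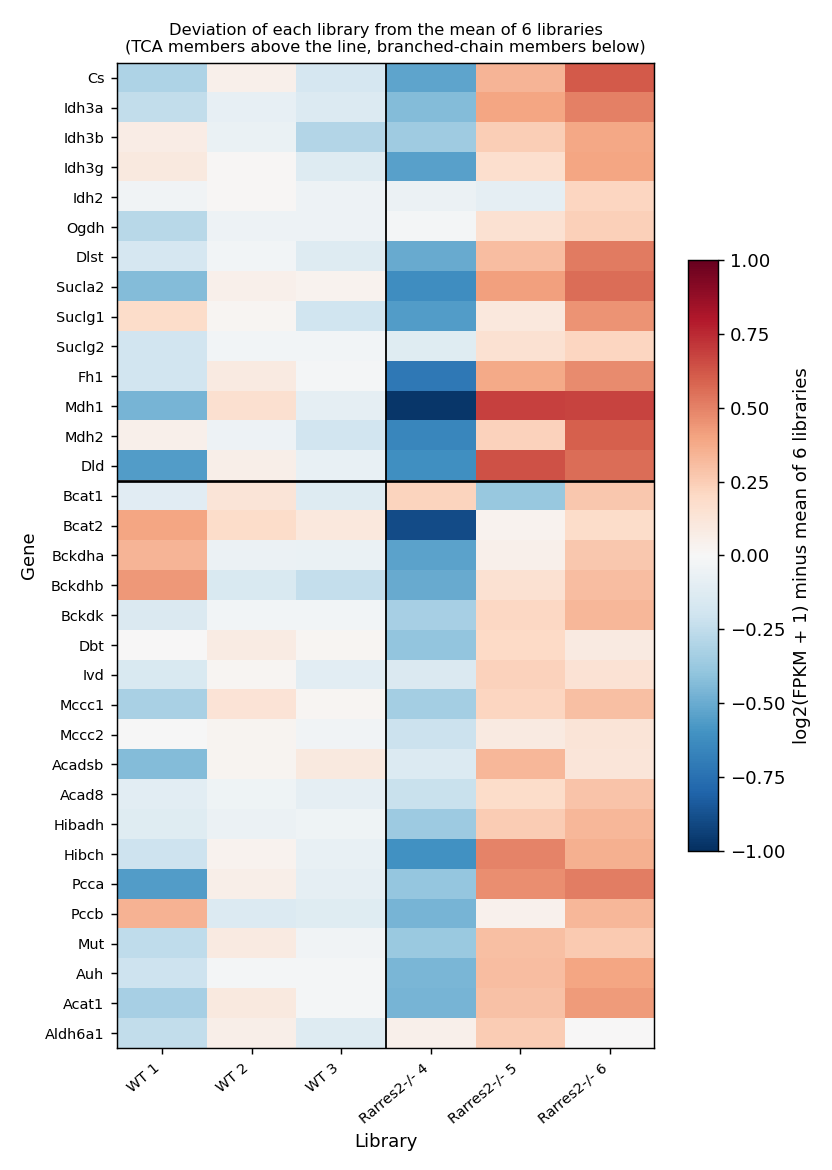
Each row is a gene and each column a library; colour is the log2(FPKM + 1) of that library minus the mean of the 6 libraries, with TCA members above the horizontal line and branched-chain members below. Most rows run blue in Rarres2-/- replicate 4 and red in Rarres2-/- replicates 5 and 6 on the deposited FPKM scale; the medians over the 14 TCA rows were -0.54, 0.28 and 0.49 in replicates 4, 5 and 6, and with libraries scaled to an equal sum they were -0.10, -0.01 and 0.29.

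The 3 Rarres2-/- libraries lay on both sides of WT. Replicate 4 was below all 3 WT libraries in 26 of 32 tested members (12 of 14 TCA, 14 of 18 branched-chain), where 33.3% of all tested genes were. Replicate 5 was above all 3 in 26 (31.5% of all genes) and below in 2, Idh2 and Bcat2 (23.4%), and replicate 6 was above in 27 (31.9%). Replicates 5 and 6 were both above all 3 WT libraries in 25 of 32 members (12 TCA, 13 branched-chain), where 21.5% of all genes were. Both patterns held at once in 20 of 32 members, against 9.46% of all genes. The summed level of 8 thermogenic adipocyte markers, most of it Cox8b, was 1384 to 1570 FPKM in WT, against 784, 1427 and 2030 FPKM in Rarres2-/- replicates 4, 5 and 6. Replicate 4 was the lowest library for 3 of the 8 and the highest for 3. Of the same list, Ucp1, Dio2 and Otop1 had groups that did not overlap on the deposited scale, higher in Rarres2-/-, with an adjusted p of 0.999 each by limma. Among all tested genes 5.81% did so. The groups of the other markers overlapped. Cox8b, Cox7a1 and Cidea had lower means in Rarres2-/- (log2 differences -0.28, -0.22 and -0.028), and Elovl3 and Ppargc1a higher ones (0.18 and 0.32). The part of these markers in the members' pattern was not tested. The plot of deviations by gene and library shows the same pattern in most rows. The exceptions to the low replicate 4 were Ogdh, Suclg2, Ivd, Acadsb, Pcca and Aldh6a1. Those to the high replicates 5 and 6 were Idh2, Suclg1, Bcat2, Bckdha, Bckdhb, Pccb and Aldh6a1.

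Part of this order depends on scale. The libraries were also scaled to an equal sum of FPKM without small RNA genes. Replicate 4 was then below all WT libraries in 7 of 32 members (10.3% of all tested genes) and above them in 12 (59.7%). Replicate 5 was above in 7 (7.54%) and below in 8 (53.3%). Replicate 6 was above in 19 (13.5%) and below in 3 (40.5%). That scaling moved the median of all tested genes by 0.37 in replicate 4, by -0.25 in replicate 5 and by -0.17 in replicate 6, so the members are given relative to it. The member median minus the median of all tested genes in replicates 4, 5 and 6 was -0.35, 0.18 and 0.29 with the equal sum and -0.41, 0.22 and 0.32 as deposited. It was -0.18, 0.11 and 0.12 with quantile normalization, where replicate 4 was below all WT libraries in 16 members (31.1% of all tested genes).

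On the deposited scale the TCA members spread further over the 6 libraries than the branched-chain members. The median SD of log2 values over the libraries was 0.37 for the 14 TCA members, 0.27 for the 18 branched-chain members and 0.25 for all tested genes. The sets also differed in level, with median mean levels of 162, 76.0 and 9.35 FPKM, and the part of level in the spread was not tested. The TCA median minus the branched-chain median was between -0.07 and -0.02 in the 3 WT libraries, and -0.16, 0.05 and 0.19 in Rarres2-/- replicates 4, 5 and 6. The gap depended on scale. With quantile normalization the TCA and branched-chain medians were -0.21 and -0.20 in replicate 4, 0.14 and 0.11 in replicate 5, and 0.23 and 0.079 in replicate 6. On the deposited scale, a comparison list of 18 genes of the respiratory chain and mitochondrial membranes had median deviations of -0.75, 0.29 and 0.53 in those 3 libraries. Replicate 4 was below all WT libraries in 16 of its 18 genes. No p-value is given for these medians, because the sets were chosen with results of these data known.

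Cs encodes citrate synthase (chromosome 10, 128337727 to 128362482, GRCm38). It was at 216, 278 and 239 FPKM in WT replicates 1, 2 and 3, against 186, 339 and 411 FPKM in Rarres2-/- replicates 4, 5 and 6. Replicate 4 was the lowest of all libraries and replicates 5 and 6 the highest, so the groups overlapped. The means were 244 ± 31.2 and 312 ± 115 FPKM (SD, n = 3 each). On the log2 scale they differed by 0.28 (SE 0.317, adjusted p = 0.999 by limma). Without replicate 4 the difference was 0.62 (SE 0.162, adjusted p = 0.365).

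The isocitrate dehydrogenases turn isocitrate into 2-oxoglutarate. Idh3a, the catalytic subunit gene of the NAD-dependent enzyme, was at 151, 169 and 163 FPKM in WT, against 132, 237 and 254 FPKM in Rarres2-/- (log2 difference 0.31, SE 0.274). Idh3b was at 179, 163 and 139 FPKM in WT, against 133, 202 and 223 FPKM in Rarres2-/-. Idh3g, on chromosome X, was at 220, 208 and 189 FPKM in WT, against 141, 232 and 271 FPKM in Rarres2-/-, with a difference of 0.014 that was negative with quantile normalization, with an equal sum and when WT replicate 3 or Rarres2-/- replicate 5 or 6 was left out. All 3 subunit genes had replicate 4 lowest and replicate 6 highest. Idh2, which encodes the NADP-dependent mitochondrial enzyme, stood out by its narrow range, at 92.6 to 96.6 FPKM in WT, against 92.1, 89.8 and 112 FPKM in Rarres2-/-, where replicate 5 was the lowest library.

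Ogdh (chromosome 11, 6291597 to 6359094), the E1 subunit gene of the 2-oxoglutarate dehydrogenase complex, was the single member with groups that did not overlap. It was at 64.0, 75.1 and 74.9 FPKM in WT, against 76.4, 86.5 and 92.0 FPKM in Rarres2-/-. Replicate 4 lay just above the highest WT library. The log2 difference was 0.25 (SE 0.160, adjusted p = 0.999 by limma). Among all tested genes, groups did not overlap with the higher values in Rarres2-/- in 5.81% and with the lower values there in 4.53%. For the 14 TCA members the counts were 1 higher and 0 lower, and for the 18 branched-chain members 0 and 0. Its partner Dlst, the E2 subunit gene, was at 110, 122 and 113 FPKM in WT, against 87.2, 154 and 178 FPKM in Rarres2-/-, so within 1 enzyme complex replicate 4 was lowest for Dlst and not for Ogdh.

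Dld (chromosome 12, 31331562 to 31351471) had the largest log2 difference of the TCA members. It was at 107, 165 and 150 FPKM in WT, against 103, 246 and 233 FPKM in Rarres2-/-. Replicate 4 was below and replicates 5 and 6 above every WT library. The difference was 0.38 (SE 0.371), and 0.79 (SE 0.208, adjusted p = 0.365) without replicate 4.

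Succinyl-CoA synthetase pairs the alpha subunit encoded by Suclg1 with an ATP-forming beta subunit (Sucla2) or a GTP-forming one (Suclg2). Sucla2 was at 112, 156 and 154 FPKM in WT, against 97.9, 201 and 223 FPKM in Rarres2-/-. Suclg2, the TCA member with the lowest mean level (46.3 FPKM over all libraries), was at 40.2, 45.1 and 45.3 FPKM in WT, against 42.3, 51.2 and 53.6 FPKM in Rarres2-/-, with replicate 4 inside the WT range. Suclg1 was at 170, 152 and 131 FPKM in WT, against 101, 161 and 205 FPKM in Rarres2-/-. Its difference of -0.0042 was positive with array weights and in the fits that left out replicate 1 or 2 of WT or replicate 4 of Rarres2-/-. The FPKM ratio of Sucla2 to Suclg2 was 2.77, 3.46 and 3.41 in WT and 2.31, 3.93 and 4.16 in Rarres2-/-, so the ATP-forming subunit gene was the more abundant in all 6 libraries. The ratio's groups overlapped (p = 0.8, two-sided exact permutation test).

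Fumarase and the malate dehydrogenases close the cycle. Fh1 was at 116, 141 and 131 FPKM in WT, against 80.5, 173 and 184 FPKM in Rarres2-/-. Mdh1, the cytosolic malate dehydrogenase gene and the member with the highest mean level (441 FPKM over all libraries), was at 295, 455 and 383 FPKM in WT, against 207, 654 and 651 FPKM in Rarres2-/-. Its spread within Rarres2-/- was more than 3 times from lowest to highest, and the log2 difference of 0.26 (SE 0.474) was 0.81 (SE 0.202, adjusted p = 0.355) without replicate 4 and -0.019 and -0.015 without replicates 5 and 6. Mdh2, the mitochondrial form, was at 400, 372 and 338 FPKM in WT, against 245, 453 and 584 FPKM in Rarres2-/-. Replicate 4 was the lowest library for all 3 genes. For Fh1 and Mdh2 the differences of 0.086 and 0.12 were -0.13 and -0.15 without replicate 6.

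**Figure D2:**
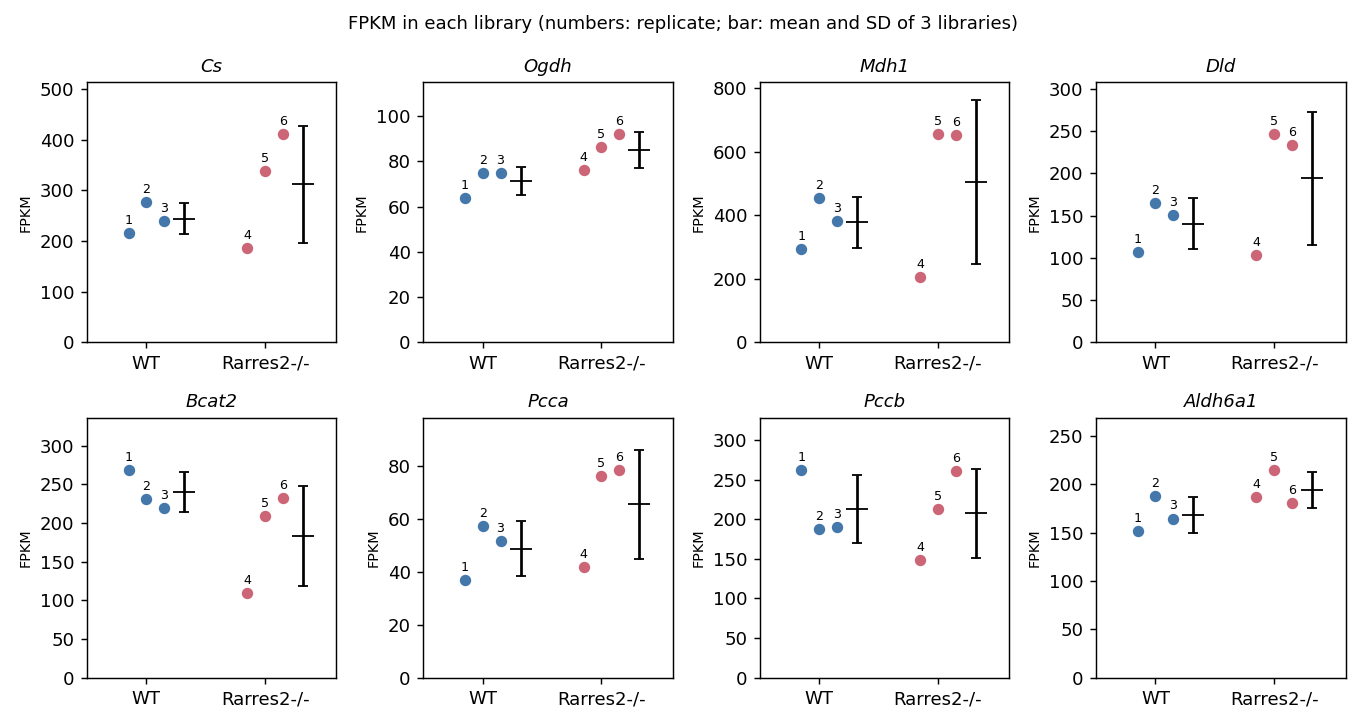
FPKM of 8 members (vertical axes, each from 0) in the 3 WT and 3 Rarres2-/- libraries; numbers are replicates and bars the mean and SD of 3 libraries. Replicate 4 is the lowest point for Cs, Mdh1, Dld, Bcat2 and Pccb, while for Ogdh all 3 Rarres2-/- points (76.4, 86.5 and 92.0 FPKM) lie above the WT points.

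The transamination that starts branched-chain breakdown is carried out by Bcat2 in mitochondria and Bcat1 in the cytosol. Bcat1 was near the floor, at 0.698, 1.01 and 0.680 FPKM in WT, against 1.15, 0.410 and 1.22 FPKM in Rarres2-/-, and was not tested. Bcat2 (chromosome 7, 45568967 to 45589710) was the branched-chain member with the highest mean level, 212 FPKM over all libraries, and the ratio of Bcat1 to Bcat2 was between 0.00197 and 0.0105. Bcat2 was at 269, 231 and 219 FPKM in WT, against 109, 209 and 232 FPKM in Rarres2-/-. Replicate 4 was far below the others, replicate 5 just below the WT range and replicate 6 inside it. Its log2 difference of -0.45 (SE 0.307, adjusted p = 0.999 by limma) was the lowest of all members, and -0.12 (SE 0.137, adjusted p = 0.757) without replicate 4. Bcat2 was the 1 member lower in Rarres2-/- in each of the 6 fits that left a library out.

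The branched-chain ketoacid dehydrogenase complex commits the carbon to oxidation. Bckdha, its E1 alpha subunit gene, was at 237, 179 and 179 FPKM in WT, against 129, 193 and 226 FPKM in Rarres2-/-. Bckdhb, the E1 beta subunit gene, was at 101, 67.0 and 63.0 FPKM in WT, against 52.1, 83.0 and 92.4 FPKM in Rarres2-/-. Both had WT replicate 1 highest and Rarres2-/- replicate 4 lowest, and their ratio stayed between 2.33 and 2.83 in all 6 libraries. Their log2 differences were -0.14 and -0.030, and 0.089 and 0.22 without replicate 4. Without WT replicate 1 that of Bckdhb was 0.18. Dbt, the E2 subunit gene, was at 41.5 to 43.9 FPKM in WT, against 31.3, 47.6 and 44.2 FPKM in Rarres2-/-.

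Bckdk encodes the kinase that switches the complex off by phosphorylating the E1 alpha subunit. It was at 33.3, 36.1 and 36.1 FPKM in WT, against 29.1, 42.7 and 46.8 FPKM in Rarres2-/- (log2 difference 0.14, SE 0.203). The ratio of Bckdk to Bckdha was 0.140, 0.201 and 0.202 in WT and 0.226, 0.221 and 0.207 in Rarres2-/-. This was the 1 ratio of 9 whose groups did not overlap, by a log2 difference of 0.28 (p = 0.1 by a two-sided exact permutation test, the smallest that 3 against 3 libraries can give, and 0.788 after adjustment over 9 ratios). Without WT replicate 1, whose ratio was the lowest, it was 0.11. Ppm1k, the phosphatase gene that reverses the kinase, was at 6.03, 5.53 and 5.45 FPKM in WT, against 3.41, 5.19 and 5.34 FPKM in Rarres2-/-, lower in every Rarres2-/- library, with a log2 difference of -0.26 (SE 0.176, adjusted p = 0.999 by limma). The margin was narrow, and 4.53% of all tested genes likewise had lower values in Rarres2-/- without overlap.

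**Figure D3:**
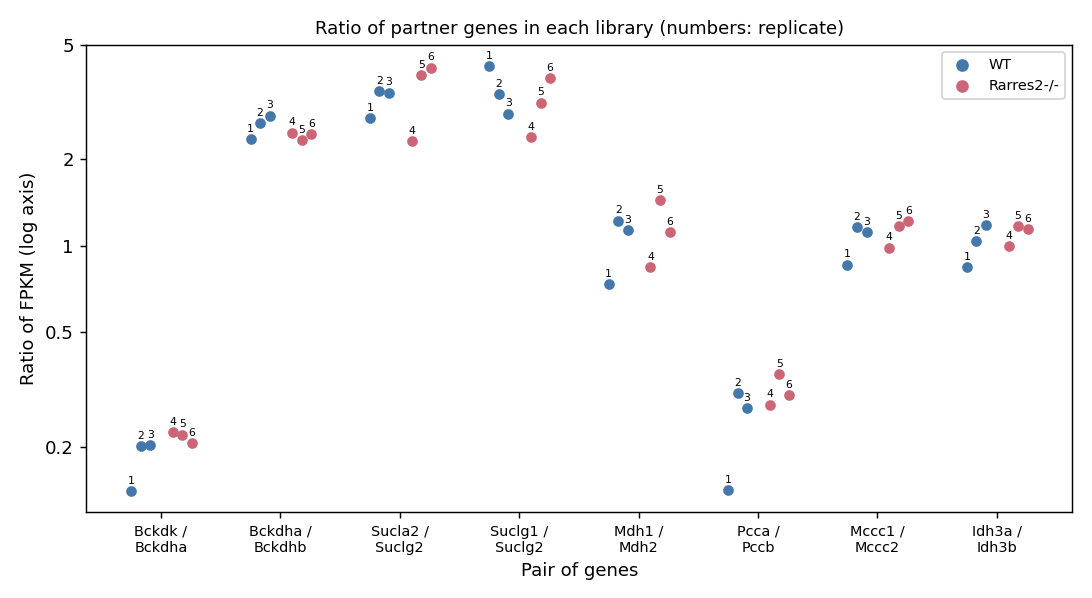
Ratio of the FPKM of partner genes (vertical log axis) for 8 pairs; each point is a library, blue for WT and red for Rarres2-/-, numbered by replicate. The Bckdk to Bckdha ratios of Rarres2-/- (0.207 to 0.226) lie above those of WT (0.140 to 0.202), and WT replicate 1 is the lowest of the 6 points for Bckdk to Bckdha, Mdh1 to Mdh2, Pcca to Pccb, Mccc1 to Mccc2 and Idh3a to Idh3b.

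In leucine breakdown, Ivd encodes isovaleryl-CoA dehydrogenase, Mccc1 and Mccc2 the subunits of methylcrotonyl-CoA carboxylase, and Auh the hydratase of the next step. Ivd was at 117, 132 and 121 FPKM in WT, against 118, 153 and 144 FPKM in Rarres2-/-, with replicate 4 inside the WT range. Auh was at 63.7, 72.7 and 72.3 FPKM in WT, against 53.4, 91.3 and 96.7 FPKM in Rarres2-/-. Mccc1 was at 51.9 to 71.8 FPKM in WT, against 51.4, 76.0 and 80.8 FPKM in Rarres2-/-. Mccc2 moved less, at 59.2 to 61.7 FPKM in WT, against 52.2, 64.7 and 66.5 FPKM in Rarres2-/-, and its log2 difference of 0.0090 was negative with upper-quartile, quantile or equal-sum scaling. Their log2 differences ran from 0.0090 (Mccc2) to 0.16 (Auh and Ivd).

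For isoleucine and valine, Acadsb and Acad8 encode the acyl-CoA dehydrogenases, Hibch and Hibadh the hydroxyisobutyrate steps, Aldh6a1 methylmalonate semialdehyde dehydrogenase and Acat1 the mitochondrial thiolase. Acadsb was at 55.0, 76.2 and 79.7 FPKM in WT, against 67.9, 94.0 and 81.1 FPKM in Rarres2-/-. Acad8, the tested branched-chain member with the lowest level, was at 14.4 to 15.1 FPKM in WT, against 13.2, 17.9 and 19.3 FPKM in Rarres2-/-. Hibch was at 132, 156 and 145 FPKM in WT, against 100.3, 215 and 196 FPKM in Rarres2-/-. Hibadh was at 179 to 189 FPKM in WT, against 152, 233 and 247 FPKM in Rarres2-/-, and Acat1 at 91.9 to 125 FPKM in WT, against 83.8, 143 and 156 FPKM in Rarres2-/-. Aldh6a1 was at 152, 188 and 165 FPKM in WT, against 187, 215 and 181 FPKM in Rarres2-/-. Its replicate 4 lay inside the WT range and only replicate 5 above it, with a log2 difference of 0.21 (SE 0.175, adjusted p = 0.999 by limma).

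Propionyl-CoA from isoleucine and valine enters the TCA cycle through propionyl-CoA carboxylase (Pcca and Pccb) and methylmalonyl-CoA mutase (Mut). The subunit genes of the carboxylase differed in level and in pattern. Pcca (chromosome 14, 122484365 to 122889944) was at 37.2, 57.4 and 51.7 FPKM in WT, against 41.8, 76.5 and 78.8 FPKM in Rarres2-/- (log2 difference 0.39, SE 0.296). Pccb (chromosome 9, 100982032 to 101034940), the larger in level, was at 263, 187 and 190 FPKM in WT, against 149, 213 and 261 FPKM in Rarres2-/- (log2 difference -0.06, SE 0.265). WT replicate 1 was the lowest of all libraries for Pcca and the highest for Pccb. The ratio of Pcca to Pccb was 0.142 in WT replicate 1 and 0.272 to 0.359 in the other 5. Mut was at 42.7, 54.5 and 49.9 FPKM in WT, against 39.3, 63.3 and 61.3 FPKM in Rarres2-/-.

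**Figure D4:**
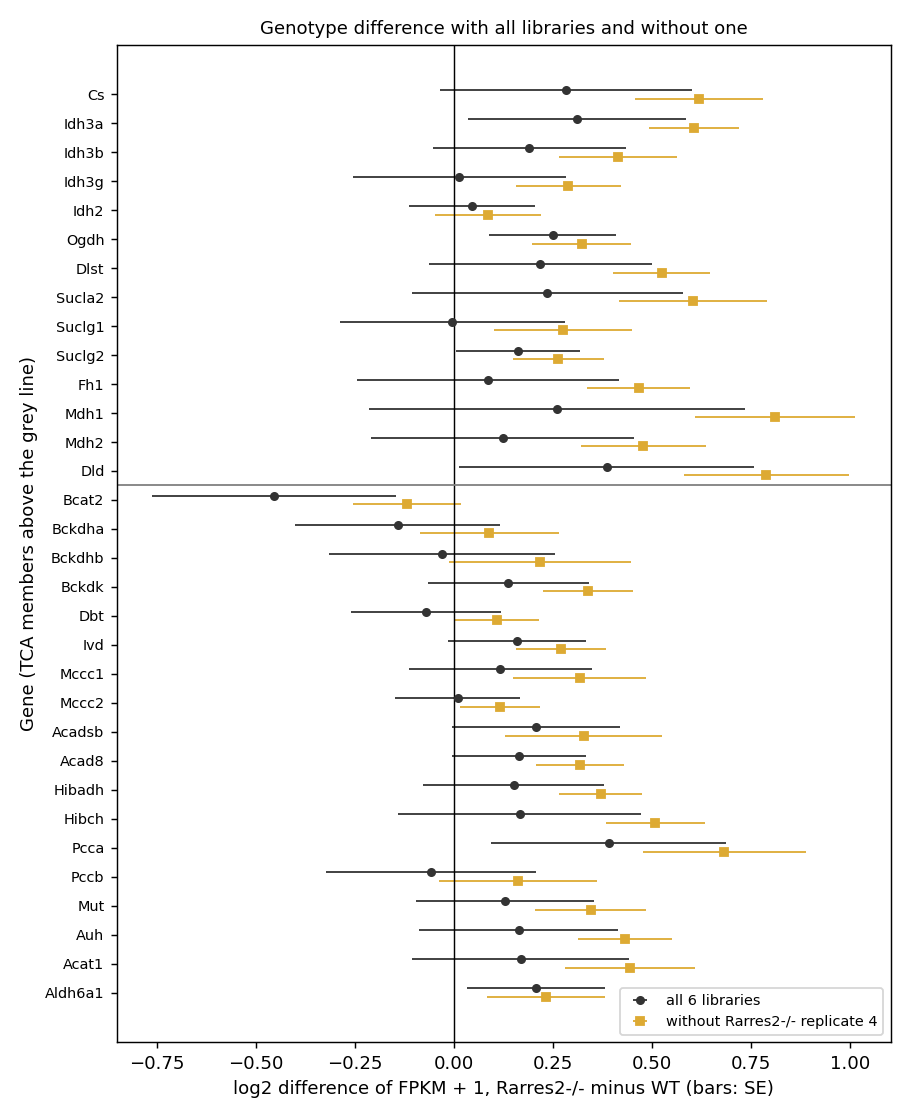
Log2 difference of FPKM + 1 between genotypes (horizontal axis, Rarres2-/- minus WT, bars SE) for the 32 tested members (vertical axis), with all 6 libraries and without Rarres2-/- replicate 4. Without replicate 4 the points sit further right: the medians were 0.20 and 0.47 for the TCA members and 0.14 and 0.32 for the branched-chain members, and Bcat2 alone stayed below 0.

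The fit without Rarres2-/- replicate 4 moved the difference upward in all 32 tested members, as the plot of both fits shows. Without replicate 4, 14 of 14 TCA members and 17 of 18 branched-chain members had higher means in Rarres2-/-, with medians of 0.47 and 0.32, against 53.2% higher and a median of 0.02 over all tested genes. The adjusted p of 0 of 32 members was under 0.05 by limma, and 17 had an unadjusted p under 0.05 (10 TCA, 7 branched-chain), against 1242 of 11086 genes. Replicate 4 was the lowest library for most members, so this count gives no separate support for a genotype difference. The largest differences in that fit were 0.81 for Mdh1, 0.79 for Dld, 0.68 for Pcca, 0.62 for Cs, 0.61 for Idh3a and 0.60 for Sucla2. The same medians without Rarres2-/- replicate 6 were 0.01 and 0.0065. Without WT replicate 1 as well as replicate 4, limma called 0.613% of all genes and 0 members, with medians of 0.47 and 0.28. With limma's array weights, the fit called 13.7% of all genes and 4 of 32 members, which is no larger a share. They were Idh3a (0.50, adjusted p = 0.0308), Dld (0.62, 0.0359), Pcca (0.48, 0.0408) and Hibch (0.47, 0.0475). The weights were 0.192, 2.81 and 2.27 for WT replicates 1, 2 and 3. For Rarres2-/- replicates 4, 5 and 6 they were 0.179, 6.19 and 0.736, so that group rested mostly on replicate 5.

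WT replicate 1 divided the members along another line, shown in the plot against transcript length. It was above both other WT libraries in 8 members (Idh3b, Idh3g, Suclg1, Mdh2, Bcat2, Bckdha, Bckdhb and Pccb) and below both in 22, with Idh2 and Mccc2 between. The longest annotated transcripts of the 8 had a median of 2064.5 bases (1477 to 2767) and a median GC content of 50.7%. Those of the 22 had a median of 3334 bases (2122 to 6751) and 45.6%. Across the 32 members the deviation of WT replicate 1 had a Pearson r of -0.49 with log2 length and 0.56 with GC content. Across 11015 tested genes with a length, r was -0.10 and 0.20. These are correlations across genes, which are not independent. The deviation of Rarres2-/- replicate 4 had an r with log2 length of 0.41 across the members and 0.32 across all genes. Such trends were not limited to these libraries. Across the members and all genes, r was -0.55 and -0.25 with GC content in Rarres2-/- replicate 5. With log2 length it was -0.30 and -0.24 in Rarres2-/- replicate 6, and 0.44 and -0.02 in WT replicate 3. With the length and GC trends of every library removed by regression, replicate 4 was still below all WT libraries in 24 of 32 members, where 30.5% of all genes were, and the median differences of the TCA and branched-chain members were 0.20 and 0.12.

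**Figure D5:**
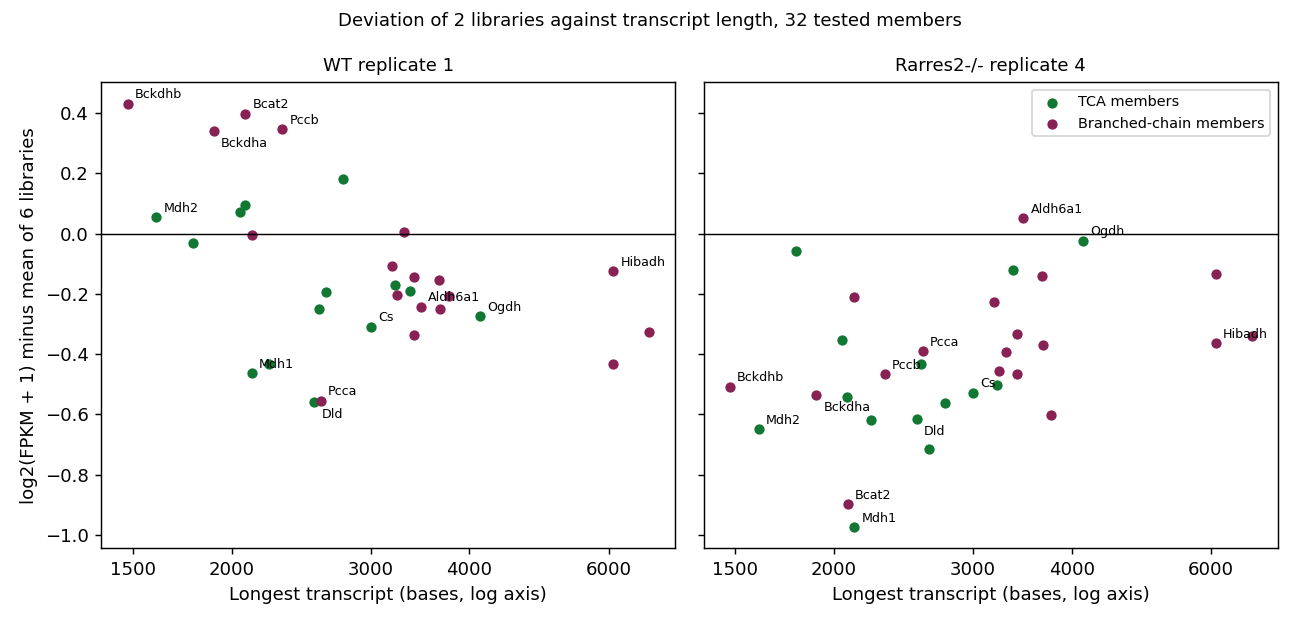
Deviation of 1 library from the mean of 6 (vertical axis, log2(FPKM + 1)) against the longest annotated transcript (horizontal log axis, bases) for 32 tested members, in WT replicate 1 (left) and Rarres2-/- replicate 4 (right). In WT replicate 1 Bckdhb, Bcat2, Pccb and Bckdha lie highest (0.43, 0.40, 0.35 and 0.34), and Dld and Pcca lowest (-0.56 and -0.55); in Rarres2-/- replicate 4 Mdh1 and Bcat2 lie lowest (-0.97 and -0.90).

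Other genes that feed or complete the pathways were taken from fixed lists. Of 19 tested genes around the TCA cycle (21 listed), 16 had higher and 3 lower means in Rarres2-/-, with a median log2 difference of 0.14, and 0 passed by limma, with 1 at an unadjusted p under 0.05. Of the succinate dehydrogenase genes, Sdha was at 209, 301 and 274 FPKM in WT, against 238, 366 and 389 FPKM in Rarres2-/-, with replicate 4 inside the WT range, while Sdhb was at 308 to 378 FPKM in WT, against 175, 394 and 491 FPKM in Rarres2-/-. Sdhc and Sdhd had log2 differences of 0.08 and 0.14, and replicate 4 was lowest for both. Pck2, mitochondrial phosphoenolpyruvate carboxykinase, was the gene with the smallest p on this list, at 10.3, 7.76 and 8.87 FPKM in WT, against 6.76, 5.92 and 6.76 FPKM in Rarres2-/-, lower in every Rarres2-/- library (log2 difference -0.41, SE 0.146, adjusted p = 0.999 by limma). Got2, mitochondrial aspartate aminotransferase, was at 10.6, 11.9 and 15.03 FPKM in WT, against 17.4, 16.3 and 15.3 FPKM in Rarres2-/-, higher in every Rarres2-/- library by a narrow margin. Of the 19 tested genes, groups thus did not overlap in 1 with higher and 1 with lower values in Rarres2-/-. Among all tested genes 5.81% and 4.53% did so.

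Of 21 tested genes around branched-chain breakdown (22 listed), 12 had higher and 9 lower means, with a median of 0.07, and 0 passed by limma, with 0 at an unadjusted p under 0.05. Slc25a44, a mitochondrial carrier of branched-chain amino acids, was at 26.4, 32.2 and 22.9 FPKM in WT, against 26.6, 35.7 and 36.8 FPKM in Rarres2-/-, and the groups overlapped. Klf15, a transcription factor that induces amino acid breakdown, was at 45.9, 42.5 and 35.7 FPKM in WT, against 32.3, 32.3 and 36.9 FPKM in Rarres2-/- (log2 difference -0.28, SE 0.157). Ehhadh, a peroxisomal enzyme of fatty acid oxidation, was at 17.3, 17.7 and 20.2 FPKM in WT, against 35.3, 21.3 and 22.8 FPKM in Rarres2-/-. Ehhadh was higher in every Rarres2-/- library (log2 difference 0.47, SE 0.214, adjusted p = 0.999 by limma). It was highest in replicate 4, the library in which most members were lowest. Of the 21 tested genes, groups did not overlap in 1 with higher values in Rarres2-/- (Ehhadh) and 1 with lower (Ppm1k). The shares among all tested genes were 5.81% and 4.53%. The white adipocyte marker sum was lowest in replicate 4, although Plin1 was highest there. The endothelial marker sum of replicate 4 was above all libraries but WT replicate 1, although its Tek was below WT replicates 2 and 3. The part of these markers in the low values of replicate 4 was not tested.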

How the data were processed

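RNA-seq libraries of inguinal fat were compared, 3 WT and 3 Rarres2-/-. The authors deposited 1 FPKM value per gene for each library, per the file headers. In WT replicate 3 the header gives no unit, and its values were read as FPKM because rows, decimals and scale match the other 5. Bowtie and mm10 are named in the submitters' processing notes. The annotation, strand and program behind the values were not given in the sources used here. Since each value is relative to the library total, a shift in a few abundant genes moves all others. Snord2 held 62.1% of the summed FPKM of WT replicate 1. As FPKM divides by transcript length, this is not its share of fragments. In that library the median over all tested genes of log2(FPKM + 1) minus the mean of the 6 libraries was -0.022. The part of Snord2 in the other values of that library was not tested. In GENCODE M21, 16 of 33 members overlap a gene on the other strand, and without strand their reads cannot be told apart.

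Rows without a symbol (737) were left out. The 11086 of 17342 genes whose mean reached 1 FPKM were tested on log2(FPKM + 1), where low genes appear to change less than they do, using limma 3.58.1 and R 4.3.3 (eBayes with trend, two-sided, genotype as the only term, Benjamini-Hochberg over all tested genes, threshold 0.05). Ratios of 2 members were compared by exact permutation over libraries. Of genes simulated with the means and spreads of this comparison (11086 genes, 200 changed), the fit recovered 47% at a log2 change of 1 and 75% at 2, and called 4 unchanged genes. The simulated noise was drawn independently for each gene and library. It therefore lacked shifts of a whole library that many genes share, and recovery in the real libraries was not measured. In the real libraries the fit did not call Rarres2, the deleted gene (adjusted p = 0.0597 by limma). The members and gene lists were chosen with earlier results of these data known. All members are accounted for; values per library are given for the 4 smallest p per set, the highest and lowest levels, the fixed pairs, Bcat1, Bcat2, Bckdk, Cs and Ogdh, and for most others as well. Of the surrounding lists, the 2 genes per list with the smallest p and 6 fixed genes are named, and 1 more fixed gene is not reported here. Transcript length and GC content come from the longest GENCODE M21 transcript, coordinates and promoters from RefSeq on GRCm38.p6. The alternatives tried were other scalings, filters, pseudocounts and weights, each library left out, and 2 scalings chosen after seeing the data.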

Additional observations from a re-analysis of the deposited data

How the results depend on the processing

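FPKM gives no counts, so depth limits cannot be stated as intervals. No paired analysis was possible because the replicate numbers are not shared between genotypes. All 32 tested members kept their direction with a pseudocount of 0.1, without a filter, with at least 5 FPKM in 3 libraries, without a trend, and with length and GC trends removed, and 17 were higher and 1 (Bcat2) lower in each fit that left a library out. Array weights stopped short of limma's convergence tolerance. The cause of the changes below was not tested.

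Over all genes limma called 1 with upper-quartile scaling, 1 with at least 5 FPKM in 3 libraries, 1 with an equal sum, 68 in WT 2 and 3 against Rarres2-/- 5 and 6, and 1524 with array weights, which called 2 TCA and 2 branched-chain members. With 1 library left out it called 0 to 1. Mccc2 turned to -0.0017 with upper-quartile, -0.047 with quantile and -0.028 with equal-sum scaling, and Idh3g to -0.022 with quantile and -0.024 with equal-sum scaling. With array weights Idh2 turned to -0.044, Suclg1 to 0.19, Bckdha to 0.10, Bckdhb to 0.32, Dbt to 0.12 and Pccb to 0.18. In WT 2 and 3 against Rarres2-/- 5 and 6, Suclg1 was 0.36, Bckdha 0.22, Bckdhb 0.42, Dbt 0.092 and Pccb 0.32, and the TCA median exceeded the branched-chain median by 0.19.

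With 1 library left out, the number of TCA members with a higher mean ran from 8 (without Rarres2-/- replicate 6) to 14 and of branched-chain members from 10 to 17. The median ran from 0.013 to 0.47 for TCA and 0.0065 to 0.32 for branched-chain members, and the gap between them from 0.0062 to 0.15. Members that changed sign ran from -0.18 to 0.29 (Idh3g), -0.052 to 0.10 (Idh2), -0.23 to 0.28 (Suclg1), -0.13 to 0.47 (Fh1), -0.019 to 0.81 (Mdh1), -0.15 to 0.48 (Mdh2), -0.31 to 0.089 (Bckdha), -0.19 to 0.22 (Bckdhb), -0.19 to 0.11 (Dbt), -0.017 to 0.32 (Mccc1), -0.054 to 0.12 (Mccc2), -0.040 to 0.51 (Hibch), -0.24 to 0.16 (Pccb) and -0.0014 to 0.44 (Acat1). Log2 ratio differences that changed sign ran from -0.025 to 1.19 (Bcat1 to Bcat2), -0.085 to 0.34 (Sucla2 to Suclg2), -0.33 to 0.0090 (Suclg1 to Suclg2), -0.089 to 0.33 (Mdh1 to Mdh2), -0.026 to 0.20 (Mccc1 to Mccc2) and -0.011 to 0.23 (Idh3a to Idh3b).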
